A study of Mus musculus with 6 samples.

Results

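The genes described here are 10 members of the BCL2 family, which sets whether the outer mitochondrial membrane stays closed or is opened during apoptosis. They were taken by symbol from the 22116 named rows of the read-count table, and were Bcl2, Bcl2l1, Mcl1, Bcl2l11, Bbc3, Pmaip1, Bax, Bak1, Bid and Bik. All 10 were rows of the table, and 9 passed the filter on low counts that left 12288 genes for testing. Cells of the 4T1 line, a mouse mammary carcinoma line described in the labels as epithelial cancer cells of the mammary gland, received either DMSO, the vehicle, or P3FI-90, an inhibitor of the histone demethylase KDM3B, at 10 µM, and were collected after 24 h. There were 3 libraries of mRNA sequencing per group, with no other treatment or genetic change named, so that 1 line, 1 dose and 1 time were sampled. No label says whether the libraries came from separate cultures, and the p-values then measure only the spread between these libraries.

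BCL2 proteins divide by role. The guardians BCL2, BCL-XL (from Bcl2l1) and MCL1 hold the pore-forming effectors BAX and BAK (from Bak1) in check, and the BH3-only proteins, among them BIM (Bcl2l11), PUMA (Bbc3), NOXA (Pmaip1), BID and BIK, bind the guardians or the effectors and so favour pore opening. Once pores form, cytochrome c leaves the mitochondria and starts caspase activation. Much of this control acts on proteins, through binding, cleavage and degradation, which read counts do not show, and the counts of a gene do not separate splice forms such as the long and the short product of Bcl2l1.

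Transcripts of 5 members fell after P3FI-90 treatment, those of the guardians Mcl1 and Bcl2l1, both effectors Bak1 and Bax, and the BH3-only gene Bid. Bcl2l11 was the only member that rose at an adjusted p under 0.05 in edgeR's quasi-likelihood test, by 1.46-fold. Bcl2, Bbc3 and Bik did not pass the test, and Pmaip1 was too low to be tested. In all, 6 of the 9 tested members (66.7%) were called, against 79.3% of all 12288 genes tested, so the share among the members was not above that background. Of all tested genes, 39.9% were called higher and 39.4% lower. The median log2 fold change was -0.48 over the 9 members and 0.0125 over all genes. None of the 9 changed by more than 1 on the log2 scale, a size that 12.7% of all tested genes passed among the higher calls and 10.6% among the lower ones.

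The 6 libraries held 31327094 to 37395732 reads counted on named genes. Normalized counts are counts put on the scale of the average library after TMM correction. For genes with few reads the deposited counts are given instead, and are called counts alone. Scaling the libraries by total count alone, instead of by edgeR's TMM method, moved the median fold change of all genes up by 0.21 on the log2 scale. All 8 markers of mammary carcinoma cells were present and all were called lower. Their summed level was 4489 to 4740 CPM in DMSO and 1865 to 1956 CPM after P3FI-90. CPM are counts scaled to a common total of reads on named genes after TMM correction. The part of this shift in the members' changes was not tested. Leukocyte markers summed to 0.931 to 2.51 CPM in DMSO and 3.88 to 4.15 CPM after treatment, with 3 of the 9 markers at 0 in every library. Most of this sum after treatment was Csf1r, which went from a mean of 41.5 to 121 normalized counts. Fibroblast and endothelial markers went from 40.6 to 42.2 CPM to between 28.4 and 31.1 CPM, and most of these counts were from Pdgfra. In bulk RNA, fewer cells of a type and less RNA per cell cannot be told apart. Kdm3b itself had 2851 ± 67.4 normalized counts in DMSO and 3109 ± 55.7 after treatment (SD, n = 3), a log2 difference of 0.13 (adjusted p = 0.0169, edgeR) that 4 alternatives did not call and correction for transcript length and GC reversed (-0.13), which does not check the inhibitor, since it acts on the enzyme.

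Promoter windows from RefSeq, on build GRCm38.p6, were read for the 250 bases before each gene start. The 13 windows read belong to 8 members, since some genes have several starts. No window was available for Bik, and the chromosome of Pmaip1 was left out of the search. The motif counts below therefore say nothing about these genes. The windows of the only called riser, Bcl2l11, of the guardian with the largest fall, Mcl1, and of both effectors are shown, so that they can be set beside the values that follow. For Bcl2l11 this is the first of 2 starts. Capitals mark matches, on either strand, to the FOXO element with letters TGTTTAC, the GC box with letters GGGCGG, the box named for its letters CCAAT, the E-box with letters CACGTG or the p53 half-site.
Bcl2l11 (chr2:128125788-128126037, plus strand): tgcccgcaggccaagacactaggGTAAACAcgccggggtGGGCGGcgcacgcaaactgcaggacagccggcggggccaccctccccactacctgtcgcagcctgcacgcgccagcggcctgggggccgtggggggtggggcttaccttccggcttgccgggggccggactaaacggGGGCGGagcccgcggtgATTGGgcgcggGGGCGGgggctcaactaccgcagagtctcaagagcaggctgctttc
Mcl1 (chr3:95658471-95658720, plus strand): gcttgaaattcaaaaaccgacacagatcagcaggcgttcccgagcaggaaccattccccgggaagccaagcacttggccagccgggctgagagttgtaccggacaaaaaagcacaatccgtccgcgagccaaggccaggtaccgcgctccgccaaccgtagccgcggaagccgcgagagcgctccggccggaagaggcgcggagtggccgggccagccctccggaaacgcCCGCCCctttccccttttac
Bax (chr7:45466899-45467148, minus strand): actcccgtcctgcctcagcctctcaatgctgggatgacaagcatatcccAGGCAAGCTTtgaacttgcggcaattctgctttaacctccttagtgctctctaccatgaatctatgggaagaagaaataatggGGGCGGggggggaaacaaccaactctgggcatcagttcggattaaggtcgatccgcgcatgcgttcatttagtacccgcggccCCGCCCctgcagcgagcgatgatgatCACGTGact
Bak1 (chr17:27028628-27028877, minus strand): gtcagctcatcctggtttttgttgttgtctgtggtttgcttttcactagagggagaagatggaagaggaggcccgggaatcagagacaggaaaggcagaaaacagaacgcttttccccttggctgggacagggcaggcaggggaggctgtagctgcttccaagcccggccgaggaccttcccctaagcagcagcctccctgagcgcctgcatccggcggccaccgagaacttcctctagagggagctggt
In the Bcl2l11 window shown, the FOXO element begins 227 bases before the start. The window of its second start held no FOXO element, only GC boxes and CCAAT boxes. A FOXO element was also present in 1 of the 3 windows of Bbc3, and it occurred in 3.17% of the 32851 promoter windows searched. Bax held a p53 half-site 201 bases before its start, found in 7.13% of all windows, and an E-box, found in 6.02% and also in 1 window of Bbc3. The Bak1 window matched none of the 11 motifs searched, which besides those marked here were the ATF4-CHOP composite (TGATGCAAT), the cAMP response element (TGACGTCA), the EGR1 element (GCGTGGGCG), the E2F element (TTTCCCGC), the TATA box (TATAAA) and the NF-kB site. GC boxes were found in 6 of the 8 members with a window and in 32.7% of all windows, the CCAAT box in 2 members and 33.8%, and the NF-kB site in 2 members and 3.9%. A member counts as matched if any of its windows matches, whereas the percentages are per window, so these shares are not alike. The other motifs were in 0 of these 8 members, and in 0.167% (ATF4-CHOP), 1.55% (cAMP response), 0.536% (EGR1), 0.895% (E2F) and 12.4% (TATA) of all windows. Such matches describe letters only and show no binding.

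**Figure D1:**
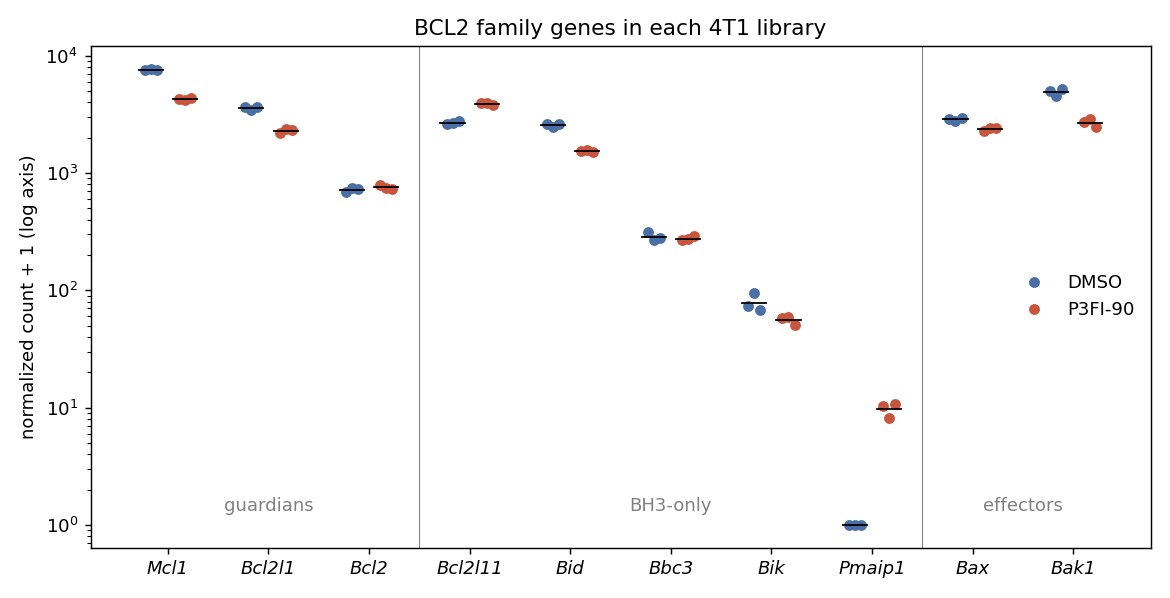
Normalized counts plus 1 of the 10 BCL2 family genes in each library, on a log axis, with the 3 DMSO libraries in blue, the 3 P3FI-90 libraries in red and a bar at each group mean. The groups separate for Mcl1, Bcl2l1, Bid, Bax and Bak1, which are lower after treatment, and for Bcl2l11, which is higher, by a small gap for Bik, and Pmaip1 is at 0 in all DMSO libraries.

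Mcl1 (ENSMUSG00000038612), a guardian with a very short-lived protein, was the most abundant member by read count. It had 7482, 7728 and 7494 normalized counts in the DMSO libraries and 4294, 4180 and 4320 in the P3FI-90 libraries. All treated libraries lay far below all controls, and the spread within a group was small against the gap. Its mean went from 7568 ± 139 to 4265 ± 74.4 (SD, n = 3), with log2 fold change -0.83 ± 0.034 (SE, edgeR adjusted p = 3.13e-11). Across 17 alternative settings the value stayed between -0.90 and -0.61 and the call was kept.

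Bcl2l1 (ENSMUSG00000007659), whose main product BCL-XL guards epithelial cells among others, had 3632, 3440 and 3611 normalized counts in DMSO. After P3FI-90 it had 2208, 2355 and 2300, without overlap. The log2 fold change was thus -0.64 ± 0.046 (SE, edgeR adjusted p = 1.29e-08), or 1.56-fold lower. None of the 50-base windows of the Bcl2l1 or Mcl1 transcripts occurs in another gene of the GENCODE M21 annotation.

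Bcl2 (ENSMUSG00000057329), the founding guardian of the family, was far less abundant than the other guardians and did not pass the test. Its normalized counts were 682, 744 and 725 in DMSO and 783, 745 and 729.8 after P3FI-90, and the groups overlapped. The log2 fold change was 0.07 with a 95% interval of -0.09 to 0.23 (adjusted p = 0.387, edgeR). Its sign depended on the processing, since it was 0.29 with scaling by total count (adjusted p = 0.00268, edgeR) and -0.33 once a fitted dependence on length and GC of the transcripts was taken out (adjusted p = 0.000734, edgeR). Bcl2 has the longest transcript of the 10 genes, 7191 bases.

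Among the BH3-only genes, Bcl2l11 (ENSMUSG00000027381), which encodes BIM, a binder of all guardians, stood at 2621, 2650 and 2763 normalized counts in DMSO. It reached 3973, 3946 and 3798 after P3FI-90, and every treated library was above every control. Its mean rose from 2678 ± 74.97 to 3906 ± 94.3 (SD, n = 3), with log2 fold change 0.54 ± 0.043 (SE, edgeR adjusted p = 3.41e-08). The call was kept under all 17 alternatives, with values from 0.31, when the trend with length and GC content was removed, to 0.76, under total counts.

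Bid (ENSMUSG00000004446), whose protein carries death-receptor signals to mitochondria once caspase-8 cuts it, moved the other way. It had 2602, 2468 and 2621 normalized counts in DMSO against 1525, 1567 and 1521 after P3FI-90. The treated libraries were closely grouped and all lower, with log2 fold change -0.74 ± 0.049 (SE, edgeR adjusted p = 4.96e-09). Of the exon bases of Bid, 17.7% overlap those of Bcl2l13 on the opposite strand, and Bcl2l13 rose by 0.63 on the log2 scale, so reads from the shared stretch cannot be assigned without strand.

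Bbc3 (ENSMUSG00000002083), the PUMA gene and a well-known p53 target, had 314, 265 and 278 normalized counts in DMSO. It had 265, 269.7 and 289 after P3FI-90, and the groups overlapped. The log2 fold change was -0.06 with a 95% interval of -0.32 to 0.21 (adjusted p = 0.673, edgeR).

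Bik (ENSMUSG00000016758), whose product acts largely at the endoplasmic reticulum, was low, with 71.9, 93.9 and 66.3 normalized counts in DMSO and 57.1, 58.5 and 49.96 after treatment. The groups did not overlap, but the gap was small against the spread of the controls, and the log2 fold change of -0.48 (SE 0.25) missed the threshold (adjusted p = 0.0921, edgeR). limma on log2(CPM + 1) called it lower (adjusted p = 0.0459). For the 9 tested members the groups did not overlap in 7 (77.8%), against 81.2% of all tested genes. P3FI-90 lay below DMSO in 6 of them and above in 1, against 40.2% and 41.0% of all tested genes.

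Pmaip1 (ENSMUSG00000024521), the NOXA gene, whose product mainly binds MCL1, was absent from the counts of all 3 DMSO libraries, whereas the P3FI-90 libraries held 10, 8 and 10 counts. Taking 3 counts over the DMSO libraries as the limit that a count of 0 allows, and the treated counts as exact, it was at least 8.16-fold higher. Should the counting have taken each mate separately, the limit is 6 counts and the bound 4.08-fold. More genes had a count of 2 than of 1 in every library (311 against 81 in the first DMSO library), and both bounds are therefore given. Without a filter, Pmaip1 was called higher (adjusted p = 0.00802, edgeR). Even after treatment its level was 0.0918 ± 0.015 CPM per kilobase of transcript, the lowest of the 10 genes.

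Both effectors fell, by unequal amounts. Bak1 (ENSMUSG00000057789), whose protein sits in the mitochondrial membrane of healthy cells, had 4975, 4540 and 5157 normalized counts in DMSO and 2707, 2859 and 2446 after P3FI-90. The treated libraries were all well below the controls, with log2 fold change -0.87 ± 0.060 (SE, edgeR adjusted p = 6.63e-09), the largest fall among the members. Its exons overlap those of Ggnbp1 on the opposite strand over 18.2% of their bases, and neither of the 2 table rows of that symbol passed the test (adjusted p = 0.361 and 0.456, edgeR).

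Bax (ENSMUSG00000003873), whose protein moves from the cytosol to mitochondria on activation, had 2877, 2792 and 2962 normalized counts in DMSO. The P3FI-90 libraries held 2254, 2425 and 2411, again without overlap. The log2 fold change was -0.28 (SE 0.049, adjusted p = 0.000107, edgeR), the smallest among the called members. That call was lost with scaling by total count (-0.07, adjusted p = 0.206) and when the trend with length and GC content was removed (0.02, adjusted p = 0.637), and Bax has the shortest transcript of the members, 1100 bases.

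**Figure D2:**
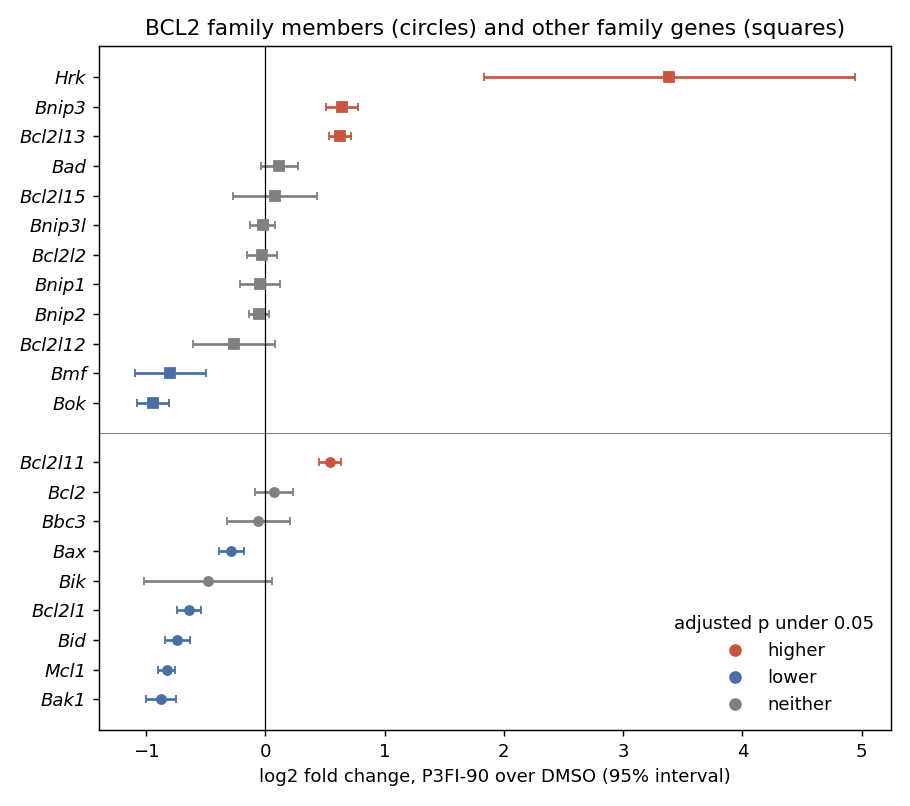
Log2 fold changes of P3FI-90 over DMSO with 95% intervals for the 9 tested members (circles) and the 12 tested other genes of the family (squares), coloured by the call at an adjusted p under 0.05. Members run from -0.87 for Bak1 to 0.54 for Bcl2l11, and Hrk, which passed the filter only through the treated libraries, is at 3.39 with a wide interval.

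Levels were compared between members per kilobase of the longest transcript. In DMSO the order was Bax with 74.6 ± 2.20 CPM per kilobase (SD, n = 3), Mcl1 with 63.1 ± 1.16, Bak1 with 58.4 ± 3.78, Bcl2l1 with 39.5 ± 1.17, Bid with 30.3 ± 0.985 and Bcl2l11 with 15.2 ± 0.424. Bbc3 (4.49 ± 0.398), Bcl2 (2.84 ± 0.126) and Bik (1.65 ± 0.312) followed, and no neighbours in this order overlapped between libraries, although Mcl1 (lowest 62.4) and Bak1 (highest 61.6) came close. After P3FI-90 the order was the same except that Bcl2l11, at 22.1 ± 0.534 CPM per kilobase, passed Bid, at 18.2 ± 0.301. The order rests on the transcript length used. With median transcript lengths Bid ranked first in DMSO and Bax after it, and after P3FI-90 Bid (rank 2) was still above Bcl2l11 (rank 3). In normalized counts, with no length, Bcl2l11 already had the higher mean in DMSO, 2678 against 2563 for Bid. The change of place between these genes thus holds only for the longest transcripts.

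As shares of the summed level of the 10 members, the guardians made up 36.4% ± 0.905 in DMSO and 31.52% ± 0.605 after P3FI-90 (SD, n = 3). BH3-only genes went from 17.8% ± 0.0888 to 22.6% ± 0.326. The effectors held 45.8% ± 0.959 and 45.9% ± 0.777, with Bax rising within them from 25.7% to 30.2% and Bak1 falling from 20.1% to 15.7% of the total. Among the BH3-only genes, Bcl2l11 went from 5.23% ± 0.119 to 10.9% ± 0.298, Bbc3 from 1.55% to 2.13%, and Bid from 10.4% to 8.95%. These shares depend on the length used. In raw counts, with no length, the effectors went from 30.8% to 27.8%, the guardians from 46.99% to 40.3% and the BH3-only genes from 22.2% to 31.9%, and with median transcript lengths the effectors held 34.8% and 35.1%. The summed level itself was 282.5 to 296 CPM per kilobase in DMSO and 200.2 to 207 after treatment. A share can rise without a rise in level, and the summed BH3-only level per kilobase also fell, but by less. Bbc3 gained share without a called change. In summed CPM, with no length, BH3-only genes overlapped, at 156.1 to 163.3 in DMSO and 161.6 to 166.8 after P3FI-90. The guardians went from at least 336.3 to at most 209.6, and the effectors from at least 209.1 to at most 150.7.

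**Figure D3:**
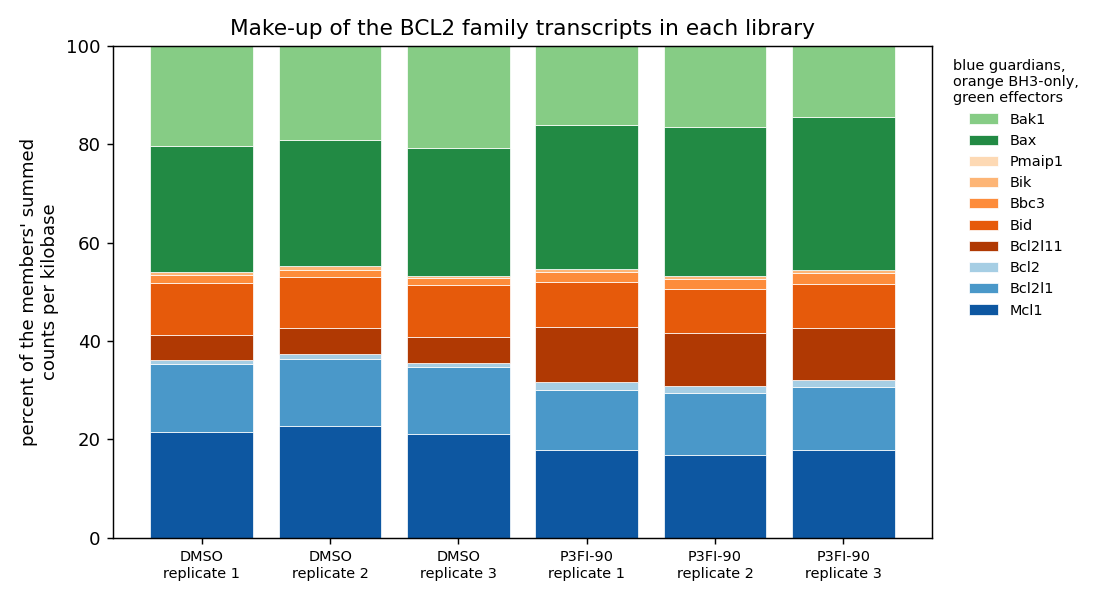
Share of each of the 10 members in their summed counts per kilobase of longest transcript, in percent, for each of the 6 libraries, with guardians in blue, BH3-only genes in orange and effectors in green. Bcl2l11 takes 5.23% on average in DMSO and 10.9% after P3FI-90, and the effectors together hold 45.8% and 45.9% at these lengths.

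Ratios between members within a library do not depend on how libraries are scaled. They do depend on the correction for transcript length and GC, which differs between genes and was not applied to them. Under it the log2 fold change of Bcl2 went from 0.07 to -0.33, of Bcl2l1 from -0.64 to -0.54 and of Bcl2l11 from 0.54 to 0.31. The ratio of Bcl2l11 to Bcl2l1, per kilobase, was 0.368, 0.393 and 0.390 in DMSO and 0.917, 0.855 and 0.842 after P3FI-90, a 2.27-fold shift. Here the groups were far apart, and this was the largest shift of the 9 ratios computed. Summed BH3-only genes to summed guardians went from 0.493, 0.476 and 0.496 to 0.725, 0.726 and 0.701, or 1.47-fold. That shift was 0.55 on the log2 scale per kilobase of the longest transcript, 0.41 with median lengths and 0.74 with raw counts. The summed CPM of the BH3-only genes overlapped between the groups, while that of the guardians fell. Bax to Bak1 moved from 1.26, 1.33 and 1.25 to 1.81, 1.84 and 2.14, which was 1.51-fold. Bcl2 to Bcl2l1 went up by 0.71 and Bbc3 to Bcl2l1 by 0.58 on the log2 scale, where Bcl2l1 was called lower and neither Bcl2 nor Bbc3 was called. Mcl1 to Bcl2l1 shifted by -0.19 and Bid to Bcl2l1 by -0.10 on the log2 scale. Summed effectors to summed guardians shifted by 0.21 per kilobase but by 0.07 in raw counts. For 8 of the 9 ratios the groups did not overlap, and the exact two-sided permutation test gave p = 0.1, the smallest that 3 libraries against 3 allow (adjusted over the 9 ratios, 0.112). Taken singly, 81.2% of all tested genes had groups without overlap, so this count does not set the ratios apart. Most of the ratios share Bcl2l1 or hold it within the guardians, and they are not separate results. The exception was Bik to Bcl2l1 (exact permutation p = 0.5). A ratio of Pmaip1 to Mcl1 was not formed because Pmaip1 was at 0 in DMSO.

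Another 20 genes of the family were listed from general knowledge. Of the 12 that passed the filter, 3 were called higher, 2 lower and 7 neither (41.7% called, against the same 79.3% of all genes), with a median log2 fold change of -0.02. Bok, an effector relative, fell from 2452, 2269 and 2607 to 1335, 1208 and 1278 normalized counts, with log2 fold change -0.94 ± 0.061 (SE, edgeR adjusted p = 3.78e-09). Bmf, a BH3-only gene tied to the cytoskeleton, fell by 0.80 (SE 0.14).

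Hrk, a BH3-only gene best known in neurons, was counted 0, 6 and 2 times in the controls and 26, 26 and 48 times in the treated libraries. The normalized ratio of the group sums was 10.9 (5.34 to 26.0, exact 95% interval for counting error). Hrk passed the filter only through the treated libraries, so its place among the 3 higher calls is no support for a change. Its fitted log2 fold change was 3.39, but 0.79 with limma on log2(CPM + 1) and 4.79 without the second DMSO library. Bcl2l13, a mitochondrial family protein with a part in mitophagy, rose by 0.63 (SE 0.042), or by 0.27 after correction for transcript length and GC, and Bnip3, a hypoxia-linked mitophagy gene, by 0.64 (SE 0.063). Of the transcript windows of Bnip3, 47.2% occur in another gene, which leaves its counts uncertain. The guardian Bcl2l2 had a log2 fold change of -0.02 (SE 0.058), but its exons overlap those of Gm20521, which went from 0 to a mean of 887 normalized counts, so its value is uncertain. Bad (0.12), Bcl2l15 (0.08), Bnip3l (-0.02), Bnip1 (-0.05), Bnip2 (-0.05) and Bcl2l12 (-0.26) did not pass the test. Bad was called higher in 3 alternatives, among them total counts (0.33) and correction for transcript length and GC (0.32). Genes on the opposite strand overlap 20.5% of the exon bases of Bad (Gpr137) and 28.9% of those of Bcl2l12 (Gm15545), so both values are uncertain.

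Of the 8 family genes below the filter, Bcl2a1a, Bcl2a1b, Bcl2a1c and Bcl2l10 had no counts in any library. Bcl2a1d had 2 counts in DMSO and 0 after treatment. Of the transcript windows of Bcl2a1a, Bcl2a1b and Bcl2a1d, 69.0%, 79.2% and 79.5% occur in another gene, so that reads from them may not have been placed, and these low counts are uncertain. Bnip5 was at 0 in DMSO and reached 4, 17 and 28 counts with treatment, which by the same limits was at least 14.3-fold or 7.14-fold higher. Bnipl had 6 counts, all in the first P3FI-90 library, and Bcl2l14 had between 0 and 10 counts in both groups.

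Downstream of the pore lie the genes of the apoptosome and its inhibitors. Of 17 tested genes, 5 were called higher, 8 lower and 4 neither (76.5% called, against 79.3% of all genes), with a median log2 fold change of 0.01. Under total counts 9 were higher and 5 lower. Casp6, a caspase gene, fell with a log2 fold change of -2.39 (SE 0.080), as did Endog, a mitochondrial nuclease, at -1.43 (SE 0.17). Birc3, an inhibitor of apoptosis induced by NF-kB, rose by 0.82 (SE 0.080), Diablo, the gene of the mitochondrial antagonist of such inhibitors, by 0.56 (SE 0.049), and Dffa by 0.43 (SE 0.10). Casp9, the initiator caspase of the apoptosome, had log2 fold change -0.33 ± 0.084 (SE, edgeR adjusted p = 0.00247), and this call was lost under total counts (adjusted p = 0.216). Apaf1, its scaffold, had 0.16 (SE 0.065, edgeR adjusted p = 0.0393), which reversed to -0.21 when the trend with length and GC content was removed. The call was lost in 6 other alternatives, among them those without DMSO replicate 1 or 2 or P3FI-90 replicate 1 or 3 (adjusted p from 0.099 to 0.156, edgeR). Cycs, the cytochrome c gene, had 0.06 and did not pass the test.

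Of 13 partners of the family at the mitochondrial membrane, 9 were called lower, 2 higher and 2 neither (84.6% called, against 79.3% of all genes, and 39.4% of all genes called lower), with a median of -0.28. Under total counts 6 were lower and 4 higher. The largest falls were in Vdac1, a channel of the outer membrane, by 1.63 (SE 0.033), the protease gene Oma1 by 0.84 (SE 0.12), and the fission gene Dnm1l by 0.62 (SE 0.037). Mff, a fission receptor, rose by 0.23 (SE 0.040), and the other riser was Bcl2l13. Vdac2, which holds BAK at the membrane, fell by 0.18 (SE 0.034).

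Among 10 tested genes for ubiquitin ligases and related factors that act on these proteins, 7 were called higher and 3 lower (against 39.9% and 39.4% of all genes), with a median of 0.25. Under total counts 7 were higher and 0 lower, so that the falls below lose their calls, and after correction for transcript length and GC 4 were higher and 5 lower. Rnf144b, a ligase for BAX, rose by 1.57 (SE 0.15), and Marchf5, a mitochondrial ligase, by 0.48 (SE 0.043). Huwe1, the ligase for MCL1 also called MULE, was among those higher, at 0.24 (SE 0.032). Usp13, a deubiquitinase, passed the filter only through the treated libraries, so its place among the 7 higher calls is no support for a change. It had 2 counts in DMSO, both in the third library, and 104 after P3FI-90, which makes a ratio of 45.5 (12.3 to 380, exact 95% interval for counting error). With at least 10 counts required in every library, 6 genes of this list were higher and 3 lower. Btrc fell by 0.34 (SE 0.072), Trim28 by 0.25 (SE 0.032), and Usp9x, which removes ubiquitin from MCL1, by 0.19 (SE 0.042).

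Upstream, a list of transcription factors known to act on BCL2 family genes was examined. Of 19 tested, 11 were called higher, 6 lower and 2 neither (89.5% called, against 79.3% of all genes, and 39.9% of all genes called higher), with a median log2 fold change of 0.71. Ddit3, the CHOP gene of the stress response, rose from 193, 193 and 194 to 3472, 3674 and 3367 normalized counts, with log2 fold change 4.18 ± 0.063 (SE, edgeR adjusted p = 2.54e-15). Atf3 rose by 3.64 (SE 0.092) and Rela by 2.11 (SE 0.039). Foxo3, which can drive Bcl2l11 and Bbc3, rose from 1325, 1284 and 1355 to 3326, 3374 and 3355 normalized counts, or by 1.34 (SE 0.048) on the log2 scale. Egr1 fell by 1.90 (SE 0.099), Foxo4 by 1.55 (SE 0.077) and Myc by 0.45 (SE 0.044).

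Trp53, the gene of p53, rose from 1120, 1280 and 1366 to 3904, 3644 and 3787 normalized counts, with log2 fold change 1.59 ± 0.066 (SE, edgeR adjusted p = 3.11e-11). Every treated library was far above every control. Of 23 tested other p53 targets, 15 were called higher, 6 lower and 2 neither (91.3% called, against 79.3% of all genes, and 39.9% of all genes called higher), with a median of 0.37. Gadd45a rose by 2.18 (SE 0.083), Mdm2, which restrains p53, by 1.45 (SE 0.062), and Plk3 by 1.42 (SE 0.056). Dcxr fell by 1.82 (SE 0.17), Ckap2 by 1.26 (SE 0.054) and Phlda3 by 1.09 (SE 0.086). Among the p53 targets within the BCL2 family, Bbc3 did not pass the test, Bax and Bid were lower, and Pmaip1 appeared at 8 to 10 counts. Read counts do not show whether these cells make working p53 protein, and its activity was not tested.

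**Figure D4:**
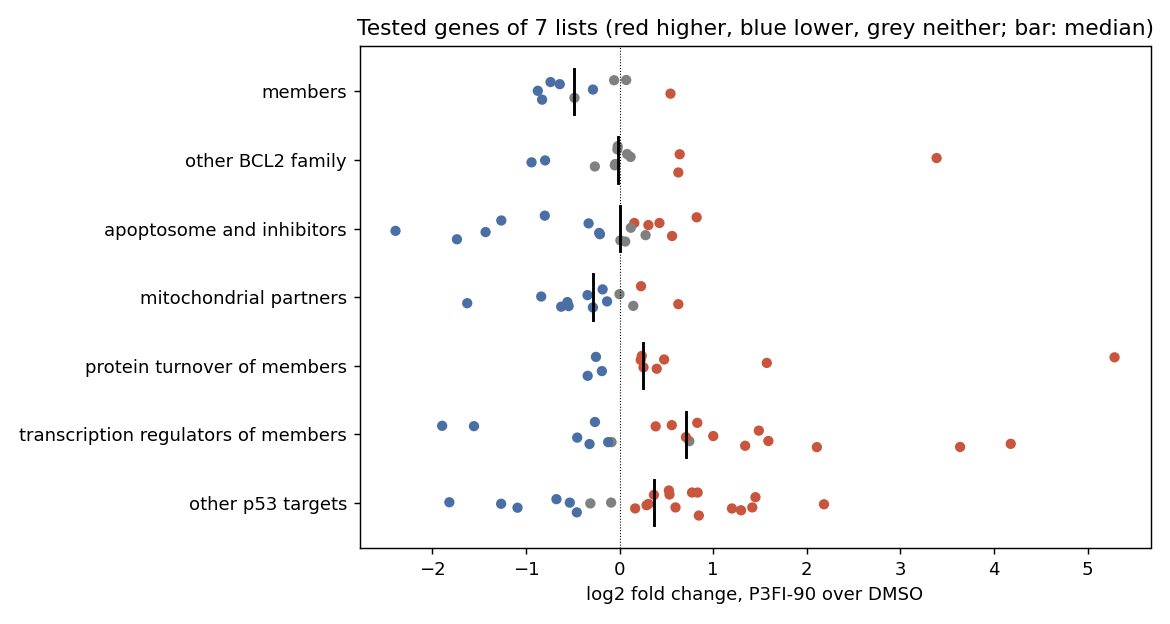
Log2 fold changes of P3FI-90 over DMSO for each tested gene of the members and 6 related lists, coloured by the call at an adjusted p under 0.05, with a bar at each median. The median is -0.48 for the members and 0.71 for the transcription factors known to act on them.

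**Figure D5:**
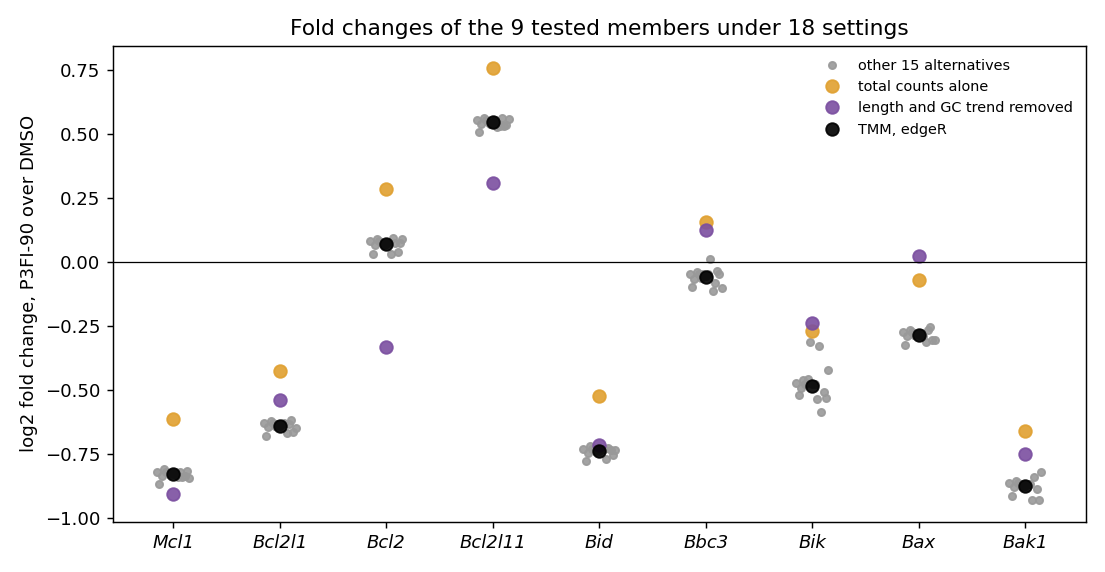
Log2 fold changes of the 9 tested members under TMM scaling with the edgeR test (black), under total counts alone (yellow), with the trend of transcript length and GC content removed (purple) and under 15 other alternatives (grey). Bcl2, Bbc3 and Bax cross 0 in some settings, while Mcl1, Bcl2l1, Bid and Bak1 stay below it and Bcl2l11 above it in all of them.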

How the data were processed

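Gene expression in 4T1 cells given DMSO or 10 µM P3FI-90 for 24 h, with 3 libraries each, was taken from deposited raw read counts, which are whole numbers per gene with no normalization. The submitters' processing notes name CASAVA, HISAT2, StringTie and build GRCm39, without versions. The annotation, the counting settings and the strandedness are not given in the sources used here. The paper names limma for its own comparison.

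Of 22401 rows, 285 assembled transcripts without a gene name (0.483% to 0.556% of a library's counts) were left out. Low genes were removed by filterByExpr (R 4.3.3), and TMM scaling and testing used edgeR 4.0.16 (quasi-likelihood test, all 6 libraries, group as the only term), with Benjamini-Hochberg adjustment over 12288 genes. Counting intervals are exact Clopper-Pearson 95% intervals and cover counting error only. The floors cover counting error of the DMSO libraries only, with the treated counts taken as exact. The replicate numbers were not used as pairs. Transcript lengths, exon overlaps and shared 50-base windows came from GENCODE M21 (GRCm38), joined by identifier, and no gene coordinates were converted. Alternatives were other scalings, filters and tests (DESeq2 1.42.0, limma 3.58.1), a replicate block, counts halved, a trend with length and GC content removed by natural splines with 4 degrees of freedom, and each library left out. On simulated counts with the same library layout over 12253 genes, 175 of 196 changed genes were recovered and 5.41% of calls were false. The simulation changed far fewer genes than the 79.3% called in the data, and gave all genes the same dispersion. It therefore gives no false share for the calls reported here.

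The members and lists were chosen with earlier results of these data known. Named are all members, all other family genes, the 3 largest called rises and falls of each other list, and Trp53, Ddit3, Foxo3, Apaf1, Cycs, Casp9 and Kdm3b. Huwe1 and Vdac2 were named after their values were seen. One gene that this rule names is not reported here.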

Additional observations from a re-analysis of the deposited data

How the results depend on the processing

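The calls of Mcl1, Bcl2l1, Bid, Bak1 and Bcl2l11 kept their direction and their side of the threshold in all 17 alternatives. Members called lower numbered 5 with each library left out. Members called higher numbered 2 under total counts (with Bcl2) and 2 without a filter (with Pmaip1), and 1 to 2 with each library left out, where Pmaip1 passed the filter only through the treated libraries. Under total counts, 7 other family genes, 9 apoptosome genes and 4 mitochondrial partners were higher, and 5 apoptosome genes and 0 turnover genes were lower. After correction for transcript length and GC, 4 other family genes and 5 turnover genes were lower, and 1 mitochondrial partner and 4 turnover genes were higher. That setting also reversed Bcl2 (-0.33), Bbc3 (0.13), Bax (0.025), Kdm3b (-0.13), Apaf1 (-0.21) and Cycs (-0.057). Total counts reversed Bbc3 (0.16), Bcl2l2 (0.19), Bnip1 (0.17), Bnip2 (0.16) and Bnip3l (0.19). With each library left out, Bbc3 ranged from -0.11 to 0.013 and Bcl2l15 from -0.072 to 0.22, both reversed without the first DMSO library, and Bnip3l from -0.056 to 0.042, reversed without the second. The causes were not tested. The replicate block gave 9524 called genes in place of 9749 and changed no call of a member. Equally numbered libraries did not deviate together (correlations of -0.0214, 0.015 and 0.00491 across genes), so the numbers were not used as pairs. Depth limits Pmaip1, Hrk, Bik, Bnip5 and Usp13, whose groups hold few counts.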
